A study of Mus musculus with 78 samples.

Results

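Amacrine cells labelled through the corticotropin-releasing hormone gene Crh were compared with amacrine cells of 3 other mouse lines that carry the same batch label. The members are 12 of the 78 arrays of the series: 3 arrays of the Crh line and 9 arrays of the Arc (set labelled 3rd), Igfbp2 and Rgs5 lines, all labelled batch 3. The Crh mice carried Tg(Crh-Cre)282Gsat/Mmnc together with the reporter Rosa26-LSL-RFP, which gives red fluorescence after Cre recombination, so that a cell which made Cre at any time in its past can carry the label. The other lines, Tg(Arc-EGFP)194Gsat/Mmcd, Tg(Igfbp2-EGFP)17Gsat and Tg(Rgs5-EGFP)24Gsat, carry green fluorescence directly under the named gene. The colour and the manner of labelling therefore go with the line and cannot be told apart from it. All mice were adult with a background labelled as a mix of C57BL/6J and an FVB/N-Swiss Webster hybrid. Stocks from the resource centre carried a recessive mutation for photoreceptor degeneration before they were crossed to C57BL/6J, and their F2 offspring were used, without a label that gives the genotype of each mouse. Retinas were dissociated for 15 min with papain and 200 fluorescent cells were sorted per sample, with 3 samples labelled as biological replicates in each set. RNA was measured on whole-transcript microarrays as 1 intensity per probe set. Of 22347 probe sets, 19446 carry 1 gene symbol, and 15736 of these (15624 genes) were bright enough (a mean above 9.01, the median intensity) in at least 1 of the 26 sets of the series to be tested. Of those tested, 2884 did not reach that brightness in any of the 4 sets compared, and 1697 reached it in the Crh set alone of the 4.

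Amacrine cells are the inhibitory interneurons of the inner retina, and most release GABA or glycine onto bipolar cells, ganglion cells and each other. They fall into many types that differ in shape, in the layer of the inner plexiform layer they reach, and in the peptides and calcium-binding proteins they contain. Corticotropin-releasing hormone is a peptide known for its role in the stress axis of the hypothalamus and is also made by some amacrine cells. Because each sample pools cells, fewer cells of a type and less RNA per cell cannot be told apart.

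The 3 Crh arrays resembled each other less than the arrays of any of the other 25 sets, by their least similar pair. Across the tested probe sets Pearson's r was 0.730 between Crh replicates 1 and 2, 0.818 between 1 and 3, and 0.861 between 2 and 3, against 0.796 to 0.979 with a median of 0.938 for the 75 pairs within the other 25 sets. Genes within an array are not independent, so these are descriptions. Between Crh replicates 1 and 2, 33.1% of the tested probe sets differed by more than 1 on the log2 scale, compared with 23.5% between 1 and 3 and 19.1% between 2 and 3. Crh replicate 1 resembled the other lines more than its own set, with r of 0.923 to 0.934 to the 9 arrays of the other lines and a mean of 0.774 to the other Crh arrays. Crh replicate 2 reached only 0.671 to 0.716 with the 9 others and Crh replicate 3 reached 0.764 to 0.796. The main genes below are therefore given for each Crh array.

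**Figure D1:**
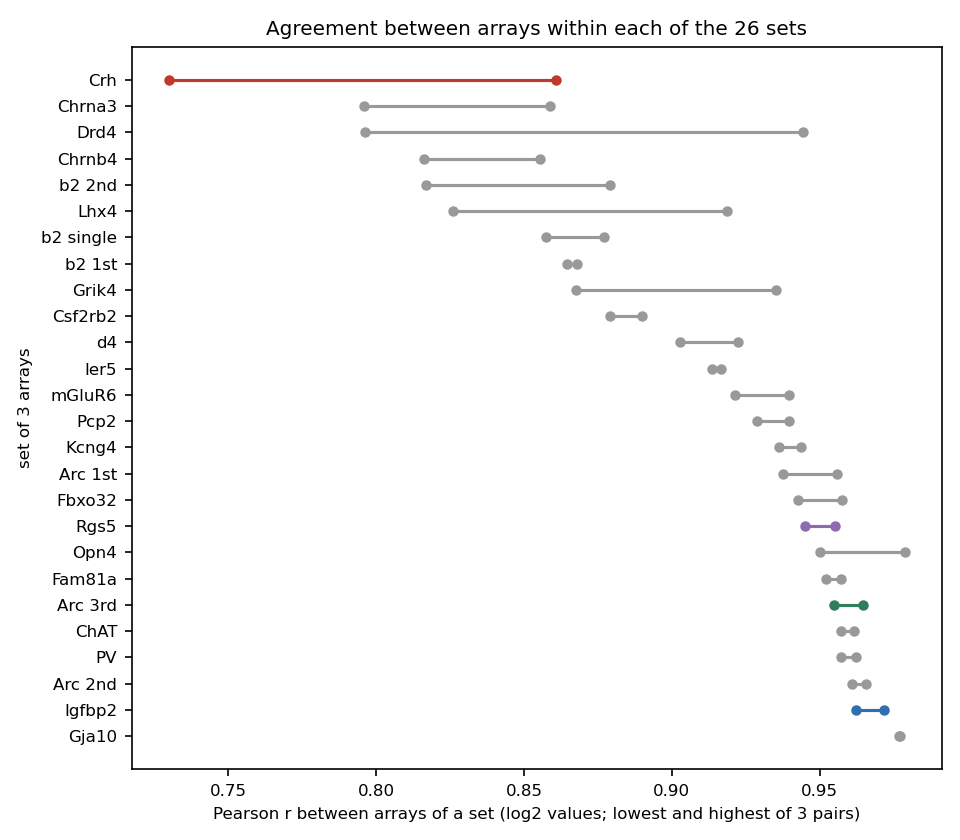
Lowest and highest Pearson's r among the 3 pairs of arrays within each of the 26 sets, from log2 intensities over the tested probe sets; the Crh set is red, Arc 3rd green, Igfbp2 blue, Rgs5 purple and all other sets grey. The Crh set holds the lowest value, 0.730, and its highest pair, 0.861, lies below the median of 0.938 of the other sets' pairs.

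On this basis 571 probe sets were called higher in the Crh line and 1378 lower, at an adjusted p below 0.05 and a log2 difference of at least 1 (limma, Benjamini-Hochberg adjustment). These are 3.63% and 8.76% of those tested (12.4% in either direction), while the median difference over all 15736 was 0.10. These p-values measure the spread between arrays of a set, not how far a line varies when it is measured again, and they use 1 spread for all 4 sets. When the Crh arrays were given their own, larger spread by array weights per set, 74 probe sets were called higher and 100 lower, all of them among the calls above. Genes called higher or lower whose values are given below kept their call under that spread only where this is said. The others had an adjusted p above 0.05 there. With line means as the unit, 43 named probe sets lost their call, and this is said below for some of them only. Among the others were Pcdh10, Drd5, Lrrtm1, Hpca, Cabp1, Gabra2, Kcnab1, Glul, Ldha and Unc5d (limma, adjusted p from 0.065 to 0.13). With Crh replicate 1 as the only Crh array, an alternative chosen after the data were seen, 98 were higher and 36 lower, of which 61 and 31 were shared. Without Crh replicate 1, 1538 were called higher and 2378 lower. Without Crh replicate 2 the counts were 278 and 327, and without Crh replicate 3 they were 334 and 343.

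A stricter description asks where every Crh array lay outside all 9 other arrays, counting the gap between the nearest arrays in log2 units. With any gap, every Crh array lay above all 9 for 986 probe sets (6.27%) and below for 739 (4.7%). With a gap of 1, that held for 37 probe sets above (0.235% of those tested) and 34 below (0.216%), and all 71 are shown array by array. Of the 37, 28 were also called with the Crh arrays' own spread, and in 28 the 3 Crh arrays lay within 1 log2 unit of each other. Of the 34, 16 were also called with that spread, and in 16 all 3 Crh arrays were at or below 3.99, the floor under which the intensities carry no order. Measurements at or below that level were raised to it before differences were taken, so that a difference is a lower bound on its size where 1 side alone holds such values. Where both sides hold them, its size has no bound.

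**Figure D2:**
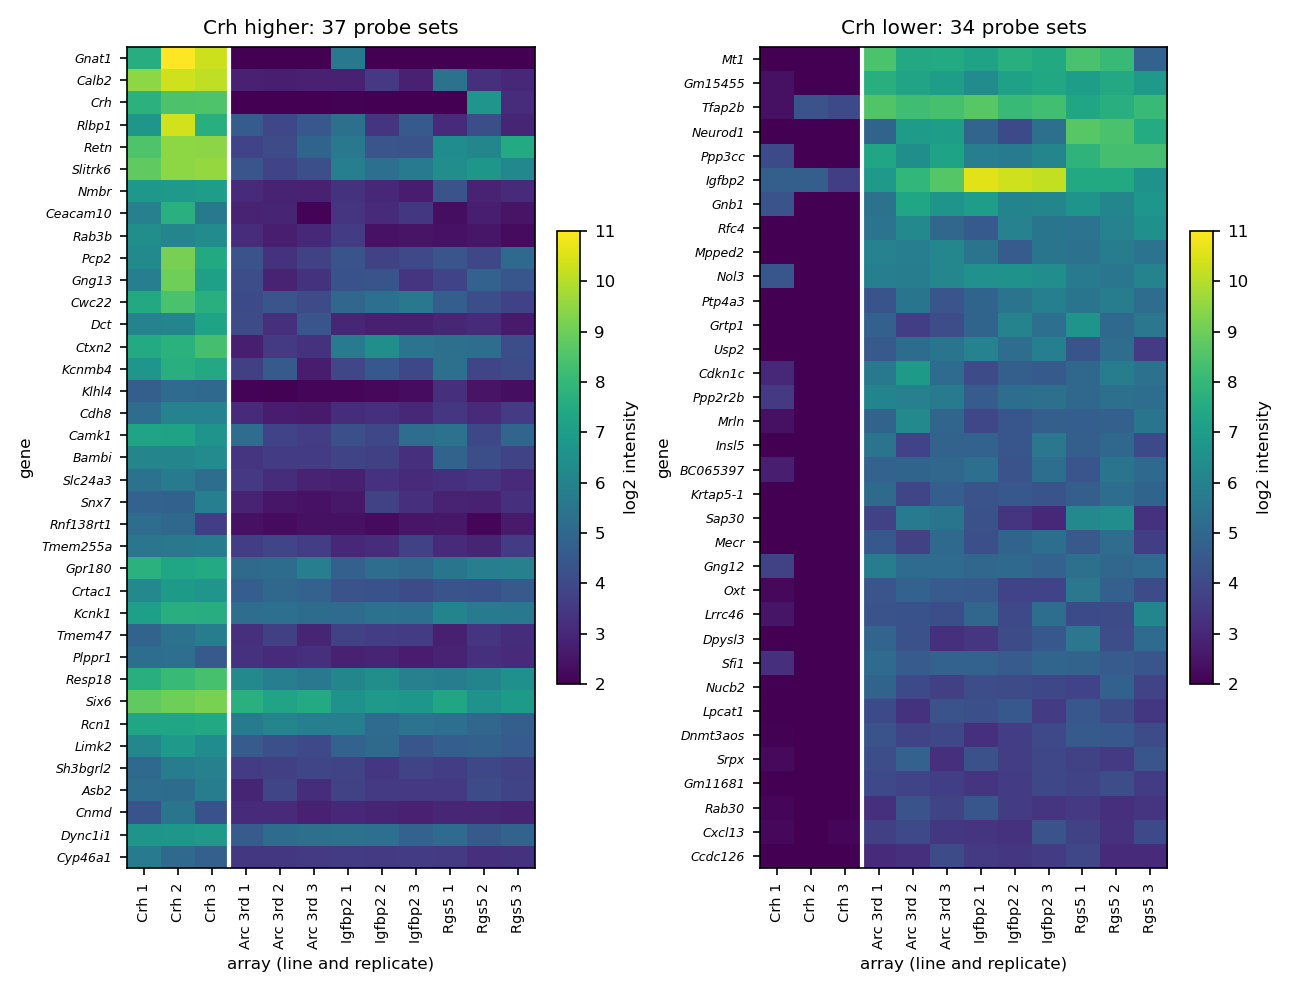
Log2 intensity (colour) on each of the 12 arrays for the 37 probe sets above and the 34 below all 9 other arrays by 1 or more on every Crh array, with genes ordered by the size of their difference and the 3 Crh arrays left of the white line. For 28 of the 37 higher probe sets the 3 Crh arrays lie within 1 log2 unit of each other. Rlbp1, Gnat1, Gng13 and Pcp2 have the widest ranges, 2.88 to 3.65 log2 units, with the highest value on Crh replicate 2. Other higher genes are also brightest on Crh replicate 2, such as Ceacam10, Cwc22 and Calb2.

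The genes that mark the line followed its label on all 3 Crh arrays. Crh itself measured 221, 355 and 368 on Crh replicates 1, 2 and 3, against 2.97 to 103 (median 3.56) on the 9 others, of which 6 were at the floor (log2 difference 5.61, SE 0.70, adjusted p = 0.00107). Of the 9 others, Rgs5 replicate 2 alone came near, at 103, and the next, Rgs5 replicate 3, measured 8.94. Without Rgs5 replicate 2 the adjusted p was 4.86e-06. With the Crh arrays' own spread the adjusted p was 0.064, above 0.05, although the groups did not overlap. Over all 26 sets the Crh set had the highest Crh level, at a mean of 307 against 15.4 in the next, Rgs5.

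Slitrk6, a transmembrane protein of the Slitrk family that promotes synapse formation and acts on neurite growth, measured 446, 705 and 758 on the Crh arrays, against 13.9 to 109 (median 53.9) on the others (log2 difference 3.87, SE 0.24, adjusted p = 1.51e-05). Its level in the Crh set, 620, was the highest of the 26 sets, ahead of 270 in the Grik4 set. Calb2, which encodes the calcium-binding protein calretinin, measured 705, 1300.4 and 1135, against 6.78 to 40.9 (median 7.16) (log2 difference 6.74, SE 0.43, adjusted p = 1.51e-05). Here the Crh set ranked behind Drd4 and ChAT, with 1013 against 1280 and 1133. With line means as the unit the adjusted p was 0.057 for Slitrk6 and 0.015 for Calb2. Both differences kept their call with the Crh arrays' own spread (adjusted p = 0.0041 and 0.0071) and with Crh replicate 1 alone (3.39 and 6.22).

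The genes that drive the label in the other lines differed in how they behaved. Igfbp2, a binding protein for insulin-like growth factors, measured 26.2, 26.4 and 12.7 on the Crh arrays, against 98.3 to 1539.8 (median 248) on the others (log2 difference -4.09, SE 0.36, adjusted p = 0.000125), and the call held with the Crh arrays' own spread (adjusted p = 0.021) but not with line means as the unit (adjusted p = 0.10). The Igfbp2 level of the Crh set, 20.65, was near the median of the 26 sets, 20.35. Arc, an immediate early gene, measured 9.88, 13.3 and 11.99 on the Crh arrays, against 7.93 to 19.7 (median 10.01) on the others (log2 difference 0.01, adjusted p = 0.97), and the groups overlapped. Rgs5, a regulator of G-protein signalling, measured 21.96, 83.5 and 37.8, against 6.14 to 199 (median 11.3), and did not pass the test over the 3 lines together (log2 difference 0.69, adjusted p = 0.141). Against the Rgs5 line alone the difference was -2.15.

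**Figure D3:**
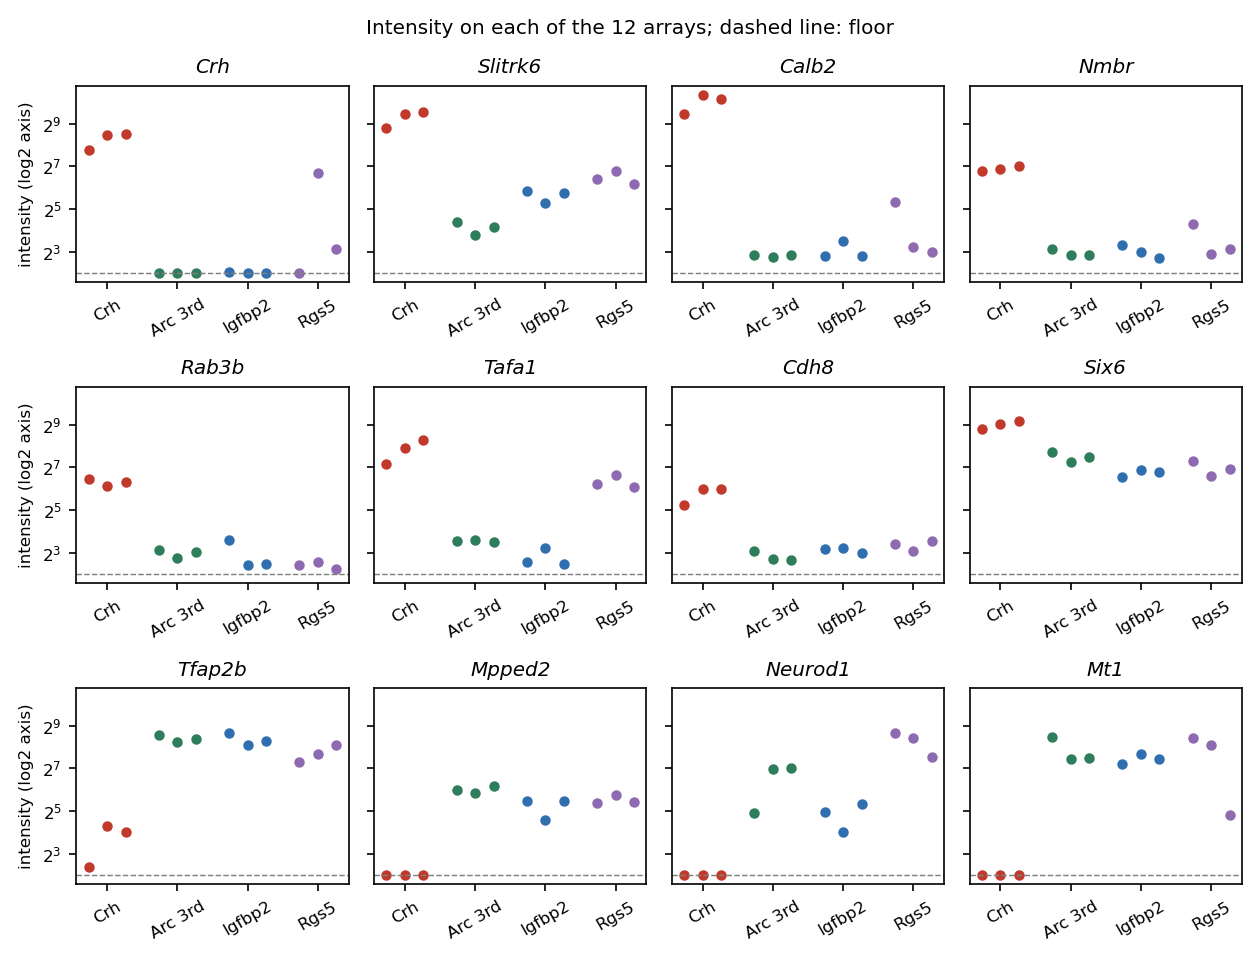
Intensity on a log2 axis of 12 genes on each of the 12 arrays, with 1 point per array and the dashed line at the floor of 3.99. The 3 Crh arrays (red, left) lie above all others for Crh to Six6 and below all others for Tfap2b to Mt1, and for Tafa1 the Rgs5 arrays lie closest to them.

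General amacrine markers were present on all 3 Crh arrays, and the transcription factor Tfap2b among them was lower. Of 12 tested amacrine markers, 1 was called higher and 1 lower (8.33% each, beside 3.63% and 8.76% of all tested). The summed level of the list was 1266, 1670.0 and 1722 on the Crh arrays, within the 1265 to 1749 of the others. Slc32a1, which loads GABA and glycine into vesicles, measured 431, 369 and 679.6 on the Crh arrays against 374 to 519.5 (median 441) on the others (log2 difference 0.12, SE 0.16, adjusted p = 0.597). Gad1, a GABA-synthesizing enzyme, measured 158, 213 and 162 on the Crh arrays against 168 to 354 (median 215) on the others (log2 difference -0.36, SE 0.19, adjusted p = 0.178). Gad2, its partner enzyme, measured 155, 130.5 and 107 on the Crh arrays against 58.5 to 285 (median 133) on the others (log2 difference 0.18, SE 0.38, adjusted p = 0.739). None of the 7 tested genes for release and uptake of GABA and glycine was called by limma, and 1 had an unadjusted p below 0.05; the SE of each difference limits what this shows. Pax6, a transcription factor of amacrine and ganglion cells, measured 314, 592 and 506 on the Crh arrays against 170.5 to 272 (median 234) on the others and lay above all others with a difference of 0.97, just under the 1 required.

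Tfap2b, which encodes a transcription factor of amacrine cells in the AP-2 family, was the amacrine marker called lower. It measured 5.28, 19.9 and 16.2 on the Crh arrays, against 156 to 409.9 (median 305) on the others (log2 difference -4.56, SE 0.35, adjusted p = 5.54e-05). The groups lay far apart, and Crh replicate 1 was the lowest of the 12 arrays. Among the 26 sets Arc 3rd and Igfbp2 had the highest Tfap2b levels, at means of 336 and 326. The Crh set ranked 16, at 11.96, near the median of 16.1. The call held with the Crh arrays' own spread (adjusted p = 0.0037) and with Crh replicate 1 alone (-5.74). Its relative Tfap2a measured 14.1, 26.4 and 34.3 on the Crh arrays against 16.3 to 41.5 (median 34.9) on the others (log2 difference -0.38, adjusted p = 0.307), so the groups overlapped. Dab1, an adaptor of the reelin pathway that AII amacrine cells contain, was the amacrine marker called higher, at 58.3, 87.7 and 35.9 on the Crh arrays against 10.2 to 27.9 (median 14.3) on the others (log2 difference 1.88, SE 0.35, adjusted p = 0.00652).

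Among other transcription factors, 7 of 62 tested factors of amacrine development and subtypes were called higher and 4 lower (11.3% and 6.45%, beside 3.63% and 8.76% overall; list median 0.11, against 0.10 over all genes). Six6, a homeobox factor of eye development, measured 443, 517 and 586 on the Crh arrays against 95.2 to 212 (median 120.2) on the others (log2 difference 1.95, SE 0.19, adjusted p = 0.000198), its 3 Crh arrays agreed closely, and the call held with the Crh arrays' own spread (adjusted p = 0.031). Neurod1, a basic helix-loop-helix factor of photoreceptors and some amacrine cells, was at or below the floor on all 3 Crh arrays, against 16.1 to 401 (median 125) on the others, a log2 difference of at least 4.42 in size (SE 0.45, adjusted p = 0.000287). Its call held with the Crh arrays' own spread by a small margin (adjusted p = 0.049) and was lost with line means as the unit (adjusted p = 0.09). The Crh set ranked 21 of the 26 sets for Neurod1, and the sets ranked below it were at the floor too. Neurod4, a related factor of bipolar and amacrine development, went the other way with 8.81, 128 and 32.7 on the Crh arrays against 4.099 to 6.997 (median 5.64) on the others (log2 difference 2.68, SE 0.57, adjusted p = 0.0113), with Crh replicate 2 far above the other arrays. With Crh replicate 1 alone the Neurod4 difference was 0.76. Isl1, a factor of bipolar, ganglion and starburst amacrine cells, measured 39.6, 248 and 43.9 on the Crh arrays against 5.87 to 21.5 (median 10.5) on the others (log2 difference 2.81, SE 0.48, adjusted p = 0.00454) and was likewise highest on Crh replicate 2, with an adjusted p of 0.049 under the Crh arrays' own spread. The other factors called higher were Lhx2, Prdm13, Prox1 and Zfhx3, and the others called lower were Onecut2 and Neurod2.

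A few neuropeptide genes that are known from other amacrine cells were lower in the Crh line than in the mean of the 3 other lines. Of 29 tested neuropeptide genes, 2 were called higher (Crh and Pdyn) and 5 lower (6.9% and 17.2%, beside 3.63% and 8.76% overall), with a list median of -0.06. Cartpt, a peptide of some amacrine and ganglion cells, measured 33.6, 29.8 and 23.2 on the Crh arrays against 32.6 to 2437 (median 300.1) on the others (log2 difference -3.22, SE 0.28, adjusted p = 0.000127), and Crh replicate 1 overlapped the lowest of the 9. The call held with the Crh arrays' own spread (adjusted p = 0.029) but not with line means as the unit (adjusted p = 0.29). Against the Rgs5 line alone the Cartpt difference was -0.69 and was not called (adjusted p = 0.17). Vip, which encodes vasoactive intestinal peptide, measured 4.74, 6.04 and 6.45 on the Crh arrays against 4.19 to 352 (median 44.3) on the others (log2 difference -2.85, SE 0.36, adjusted p = 0.00111). The 9 other arrays differed widely for Vip, and against the Rgs5 line alone the difference was 0.16. Npy, which encodes neuropeptide Y, measured 109, 65.5 and 91.7 on the Crh arrays against 16.8 to 1108 (median 682) on the others (log2 difference -1.74, adjusted p = 0.00441), again with wide spread among the 9. Its difference against the Rgs5 line alone was 1.41.

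Pdyn, the precursor of dynorphin, was called higher at 15.8, 22.9 and 37.1 on the Crh arrays against 8.197 to 15.98 (median 10.5) on the others (log2 difference 1.07, adjusted p = 0.012). Tac1, the precursor of substance P, was bright in every line, at 1957, 2537 and 3070.0 on the Crh arrays against 815 to 2178 (median 1692) on the others, and its difference of 0.77 stayed under the 1 required (adjusted p = 0.00221). Cort and Oxt were the other peptides called lower. For Cort, the precursor of cortistatin, the call rested on Crh replicates 2 and 3, at 15.5, 2.88 and 3.34 on the Crh arrays against 11.4 to 16.8 (median 13.8) on the others, and with Crh replicate 1 alone the difference was 0.17. The CRH system holds the peptides, their receptors and a binding protein. Of its 7 tested genes only Crh itself was called (14.3% higher and 0% lower, beside 3.63% and 8.76% of all tested). Crhr1, the main receptor, measured 14.2, 25.5 and 9.06 on the Crh arrays against 7.42 to 22.8 (median 14.2) on the others (log2 difference -0.0034, SE 0.35). Crhbp, the binding protein, measured 10.2, 5.48 and 9.32 on the Crh arrays against 7.28 to 11.6 (median 9.15) on the others (log2 difference -0.19, SE 0.20).

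Several further genes separated the Crh line from the others. Nmbr, the receptor for neuromedin B, measured 111, 118 and 130.4 on the Crh arrays against 6.601 to 19.8 (median 7.93) on the others (log2 difference 3.77, SE 0.27, adjusted p = 3.93e-05). Rab3b, a small GTPase of secretory vesicles, measured 88.1, 69.2 and 80.8 on the Crh arrays against 4.79 to 12.2 (median 5.87) on the others (log2 difference 3.56, SE 0.25, adjusted p = 3.09e-05). Of the 4 sets it was above the filter's threshold in the Crh set alone. The Crh arrays agreed within a narrow band for both, and the differences with Crh replicate 1 alone were 3.67 and 3.72. Tafa1, a secreted protein of the TAFA family, measured 143, 244 and 309 on the Crh arrays against 5.53 to 101 (median 11.9) on the others (log2 difference 3.57, SE 0.27, adjusted p = 4.41e-05), with the Rgs5 line nearest at a mean of 79.4; with line means as the unit its adjusted p was 0.16. Ceacam10, an immunoglobulin-family glycoprotein, measured 60.3, 211 and 49.5 on the Crh arrays against 4.202 to 11.03 (median 7.32) on the others (log2 difference 3.61, SE 0.38, adjusted p = 0.00037). Dct, dopachrome tautomerase of melanin synthesis, measured 64.1, 67.9 and 148 on the Crh arrays against 6.28 to 20.5 (median 7.76) on the others (log2 difference 3.22, SE 0.29, adjusted p = 0.000145).

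The 37 genes above all 9 others by 1 or more were chosen for exceeding the Arc 3rd, Igfbp2 and Rgs5 sets, which favours a first rank. How many of all tested probe sets rank first in the Crh set was not counted. For Nmbr, Rab3b, Tafa1, Ceacam10 and Dct the Crh set had the highest mean of the 26 sets, as it did for 23 of those 37. Cwc22, a splicing factor, belonged to them as well at 177, 341 and 198 on the Crh arrays against 13.5 to 48.7 (median 20.7) on the others (log2 difference 3.29, SE 0.27, adjusted p = 8.36e-05). Retn, which encodes resistin, did not: it measured 371, 716 and 690.4 on the Crh arrays against 13.98 to 182 (median 29.6) on the others (log2 difference 3.92, SE 0.39, adjusted p = 0.000247), and the Pcp2 and mGluR6 sets were higher, at 990.2 and 588 against 568 in the Crh set. All of these kept their call with the Crh arrays' own spread, at adjusted p from 0.0071 for Tafa1 to 0.044 for Retn. The call of Retn, like that of Tafa1, was lost with line means as the unit (adjusted p = 0.064). Gdpd3, a phosphodiesterase of lipid metabolism, measured 174, 225 and 246 on the Crh arrays against 3.79 to 98.9 (median 7.85) on the others (log2 difference 3.98, SE 0.75, adjusted p = 0.00685) and was also highest in the Crh set among the 26, but its call was lost with that spread (adjusted p = 0.18).

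The next 5 genes, also above all 9 others by 1 or more, were picked after their values were seen. Klhl4 measured 26.4, 35.7 and 33.7 on the Crh arrays against 4.15 to 9.36 (median 4.602) on the others, close to the floor in the other lines and under the filter's threshold in all 3 (log2 difference 2.66, SE 0.19, adjusted p = 3.11e-05). Slc24a3, an exchanger of sodium, calcium and potassium, measured 42.3, 50.9 and 38.1 on the Crh arrays against 7.005 to 11.3 (median 9.03) on the others (log2 difference 2.29, SE 0.19, adjusted p = 9.41e-05). Bambi, a pseudoreceptor that dampens TGF-beta signalling, measured 68.04, 68.2 and 80.8 on the Crh arrays against 9.61 to 29.2 (median 13.03) on the others (log2 difference 2.37, SE 0.23, adjusted p = 0.000222). Plppr1, a membrane protein of the lipid phosphatase family in neurons, measured 38.6, 38.6 and 22.7 on the Crh arrays against 6.36 to 9.87 (median 8.67) on the others (log2 difference 1.98, SE 0.19, adjusted p = 0.000198). All 4 kept their call with the Crh arrays' own spread, at adjusted p from 0.0071 to 0.041. Camk1, a calcium/calmodulin-dependent kinase, measured 153, 149 and 100.4 on the Crh arrays against 12.3 to 41.7 (median 18.5) on the others (log2 difference 2.56, SE 0.41, adjusted p = 0.00344), but its adjusted p was 0.11 with that spread.

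Single ion channel genes differed between the Crh line and the others. Of 76 tested potassium channel genes 4 were called higher and 6 lower (5.26% and 7.89%, beside 3.63% and 8.76% overall), with a list median near 0, so the shares lay close to those over all genes. Kcnk1, a leak channel of the TWIK class, measured 135, 206 and 193 on the Crh arrays against 35.7 to 67.5 (median 39.4) on the others (log2 difference 2.02, SE 0.20, adjusted p = 0.000211), and kept its call with the Crh arrays' own spread (adjusted p = 0.019). Kcnmb4, a subunit that modulates large-conductance calcium-activated channels, measured 103, 201 and 171 on the Crh arrays against 6.59 to 40.5 (median 15.6) on the others (log2 difference 3.18, SE 0.41, adjusted p = 0.00111), with an adjusted p of 0.061 under that spread. Kcnip4, which binds Kv4 channels, measured 41.97, 47.9 and 87.4 on the Crh arrays against 7.18 to 29.8 (median 8.75) on the others (log2 difference 2.44, SE 0.34, adjusted p = 0.00162). Kcnab1, a cytoplasmic subunit of Kv1 channels, was lower at 10.3, 26.3 and 19.5 on the Crh arrays against 23.8 to 166 (median 76.4) on the others (log2 difference -1.91, SE 0.36, adjusted p = 0.00695). The others called were Kcnip2, higher, and Kcns2, Kcns3, Kcnk12, Kcng1 and Kcnmb3, lower. Among sodium, calcium and HCN channels 4 of 24 were called higher and none lower: Cacna2d3, Cacna2d1, Scn1a and Scn10a, each by 1.02 to 1.13 (16.7% and 0%, beside 3.63% and 8.76% overall). Scn10a passed the filter through the Crh set alone of all 26, so it had to be high there.

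Calcium-binding proteins shape how a neuron reads its calcium signals. Of 26 tested calcium buffers and sensors 10 were called higher and 1 lower (38.5% and 3.85%, beside 3.63% and 8.76% overall), with a list median of 0.57. Beside Calb2, Hpca, which encodes hippocalcin, measured 107, 145 and 98.4 on the Crh arrays against 21.9 to 70.8 (median 29.96) on the others (log2 difference 1.72, adjusted p = 0.00241), with no overlap. Cabp1, a regulator of calcium channels, measured 63.99, 109.5 and 76.4 on the Crh arrays against 15.5 to 46.03 (median 37.2) on the others (log2 difference 1.35, adjusted p = 0.00931), also without overlap. Calb1, which encodes calbindin, measured 11.4, 19.8 and 16.02 on the Crh arrays against 4.95 to 12.05 (median 7.03) on the others (log2 difference 1.13, SE 0.26, adjusted p = 0.0154). Cabp5 and Scgn are 2 members that also mark bipolar cells, and both were highest on Crh replicate 2: Cabp5 measured 20.6, 346 and 75.2 on the Crh arrays against 9.405 to 26.4 (median 12.7) on the others, and Scgn measured 5.02, 103 and 49.7 on the Crh arrays against 3.38 to 6.89 (median 4.74) on the others. On Crh replicate 1 neither was above the range of the 9 others, and with that array alone the Scgn difference was -0.011.

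Recognition molecules, which guide neurites to their partners, gave single members. Cdh8, a type II cadherin, measured 37.6, 63.99 and 63.6 on the Crh arrays against 6.31 to 11.9 (median 8.46) on the others (log2 difference 2.64, SE 0.21, adjusted p = 6.82e-05), and kept its call with the Crh arrays' own spread (adjusted p = 0.0071) and with Crh replicate 1 alone (2.13). Of 28 tested cadherins and protocadherins 4 were called higher (Cdh8, Cdh9, Pcdh8, Pcdh10) and 2 lower (Cdh13, Cdh24), which is 14.3% and 7.14%, beside 3.63% and 8.76% overall. Pcdh10 measured 32.8, 33.9 and 29.1 on the Crh arrays against 8.98 to 21.6 (median 13.1) on the others (log2 difference 1.20, SE 0.16, adjusted p = 0.00154), with the 3 Crh arrays close together. Of 13 tested Slitrk, Lrrtm and Flrt genes, 3 were called higher (Slitrk6 itself, Lrrtm4 and Flrt3) and 3 lower. These are 23.1% and 23.1%, beside 3.63% and 8.76% of all tested. Lrrtm1, a postsynaptic adhesion protein, measured 9.77, 10.7 and 8.07 on the Crh arrays against 15.7 to 35.3 (median 19.7) on the others (log2 difference -1.22, SE 0.18, adjusted p = 0.00267), below all others on every Crh array. For Flrt1 and Slitrk4, called lower as well, Crh replicate 1 lay within the range of the others: Slitrk4 measured 13.6, 0.576 and 3.74 on the Crh arrays against 12.7 to 26.5 (median 17.8) on the others.

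Of 13 tested GABA receptor genes 5 were called higher and none lower (38.5% and 0%, beside 3.63% and 8.76% overall; list median 0.52). The rho subunits, which form slow GABA receptors known above all from bipolar cells, were 3 of them. Gabrr1 measured 10.5, 65.6 and 31.7 on the Crh arrays against 4.89 to 8.59 (median 6.83) on the others (log2 difference 2.10, SE 0.41, adjusted p = 0.00804). Gabrr2 measured 16.97, 128 and 42.4 on the Crh arrays against 9.86 to 13.9 (median 11.6) on the others (log2 difference 1.97, SE 0.44, adjusted p = 0.0128). All 3 Crh arrays were above all others for both, with Crh replicate 2 the highest. Gabra2, a synaptic subunit, was more even among the Crh arrays at 23.03, 30.3 and 30.6 on the Crh arrays against 6.96 to 24.5 (median 12.2) on the others (log2 difference 1.22, SE 0.28, adjusted p = 0.0143), although Crh replicate 1 lay within the range of the others. Gria2, the AMPA receptor subunit that limits calcium entry, measured 50.1, 66.7 and 84.1 on the Crh arrays against 17.6 to 37.3 (median 22.6) on the others (log2 difference 1.46, SE 0.21, adjusted p = 0.00215), above all others on every Crh array. Drd5, a dopamine receptor of the D1 class, was lower at 7.29, 5.597 and 4.37 on the Crh arrays against 12.6 to 71.8 (median 31.6) on the others (log2 difference -2.44, SE 0.30, adjusted p = 0.000976), and all 3 Crh arrays lay below the 9. Chrm2, a muscarinic acetylcholine receptor, was called lower over the 3 lines together at 5.32, 6.07 and 7.15 on the Crh arrays against 4.98 to 61 (median 11.9) on the others (log2 difference -1.22, adjusted p = 0.00437). Its difference was 0.044 against the Rgs5 line alone.

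Some genes were lower on all 3 Crh arrays. Mpped2, a metallophosphodiesterase, was at or below the floor on all 3 Crh arrays, against 24.1 to 72.1 (median 44.8) on the others, a log2 difference of at least 3.58 in size (SE 0.22, adjusted p = 1.51e-05). It kept its call with the Crh arrays' own spread (adjusted p = 0.0071), but it was picked after its values were seen. Gm15455, a predicted gene, measured 5.36, 3.69 and 2.82 on the Crh arrays, against 81.2 to 199.6 (median 143) on the others (log2 difference -4.98, SE 0.26, adjusted p = 6.24e-06). Ppp3cc, a catalytic subunit of calcineurin, measured 16.1, 3.43 and 2.595, against 51.3 to 325 (median 151) (log2 difference -4.35, SE 0.39, adjusted p = 0.000138). Both kept their call with that spread, at 0.0037 for Gm15455 and 0.0071 for Ppp3cc.

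Mt1, a metallothionein that binds zinc and copper, was at or below the floor on all 3 Crh arrays and measured 28.6 to 352 (median 181) on the others, a log2 difference of at least 5.45 in size (SE 0.60, adjusted p = 0.000446). With the Crh arrays' own spread the adjusted p was 0.052. The Crh set ranked 22 of the 26 sets for Mt1, and the sets ranked below it were at the floor too. Of the 3 metallothioneins Mt1 and Mt3 were called lower and 0 higher (66.7% and 0%, beside 8.76% and 3.63% of all tested). Mt2 measured 166, 1010.0 and 229 on the Crh arrays against 104 to 652 (median 248) on the others (log2 difference 0.53, adjusted p = 0.463). Mt3 measured 42.3, 2.29 and 1.58 on the Crh arrays against 25.3 to 55.2 (median 39.6) on the others (log2 difference -2.19, SE 0.58, adjusted p = 0.0229), and on Crh replicate 1 it lay within the range of the others. Gnb1, a G-protein subunit, measured 19.9, 2.94 and 2.25 on the Crh arrays, against 40.9 to 155 (median 101) (log2 difference -3.67, SE 0.52, adjusted p = 0.00193), with an adjusted p of 0.052 under the Crh arrays' own spread.

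For most of the genes called lower, Crh replicate 1 did not lie below all 9 other arrays. Where those 9 spread widely, as for Vip, Crh replicate 1 could still be as low as the other Crh arrays. Of the 1378 probe sets called lower, Crh replicate 1 lay within the range of the 9 other arrays for 847, below it for 515 and above it for 16. Of the 571 called higher, Crh replicate 1 lay within that range for 213, above it for 357 and below it for 1. The brightest Crh array was replicate 2 for 353 of these 571, replicate 3 for 187 and replicate 1 for 31. For 728 of the 1378, Crh replicates 2 and 3 were both at or below the floor, and for 40 all 3 Crh arrays were. Among 2284 probe sets above an intensity of 32 on all 9 other arrays, 283 stood at or below the floor on Crh replicate 2, 141 on Crh replicate 3 and 0 on Crh replicate 1. These included 117 on both (5.12%), of which 101 were above 32 on Crh replicate 1. Of all tested probe sets, 710, 1668 and 1673 stood at or below the floor on Crh replicates 1, 2 and 3, against 543 to 654 on the 9 others.

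Ribosomal protein genes, which every cell uses, show this pattern. Of 44 tested, 0 were called higher and 7 lower (0% and 15.9%, beside 3.63% and 8.76% overall), and on Crh replicates 2 and 3 11 and 2 of the list were at or below the floor, against 0 on Crh replicate 1. Rpl29 measured 560.2, 3.39 and 2.57 on the Crh arrays against 525 to 763 (median 617) on the others (log2 difference -4.90, SE 1.16, adjusted p = 0.0156). Its call held with the Crh arrays' own spread (adjusted p = 0.049), yet with Crh replicate 1 alone the difference was -0.14. Rpl27a measured 306, 3.68 and 2.81 on the Crh arrays against 204 to 319 (median 235) on the others (log2 difference -3.83, SE 1.02, adjusted p = 0.0228). With Crh replicate 1 alone its difference was 0.34. Ribosomal genes have near-identical copies in the genome, so that their probes may read more than 1 gene. Ndufa12, a subunit of respiratory complex I, measured 93.9, 3.65 and 2.79 on the Crh arrays against 79.5 to 146 (median 105) on the others (log2 difference -3.18, SE 0.75, adjusted p = 0.0158), with Crh replicate 1 again inside the range. The same holds for Eif4a3, of the exon junction complex, at 343, 3.55 and 2.704 on the Crh arrays against 321 to 517 (median 413) on the others. It also holds for Ssbp1, of mitochondrial DNA maintenance, at 334, 3.63 and 2.77 on the Crh arrays against 268 to 510.2 (median 442) on the others. With Crh replicate 1 alone their differences were -0.21 and -0.33, while both calls held with the Crh arrays' own spread (adjusted p = 0.049 and 0.049).

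Genes high on Crh replicates 2 and 3 but not on Crh replicate 1 were of another kind. The lens crystallin gene Crygd measured 5.18, 1593 and 361 on the Crh arrays against 1.27 to 89.8 (median 3.56) on the others (log2 difference 4.50, SE 1.36, adjusted p = 0.034). Crygc measured 5.38, 1184 and 285 on the Crh arrays against 4.01 to 137 (median 5.99) on the others and did not pass the test (adjusted p = 0.0562). Cryba1, Crygs and Crygb behaved alike, with adjusted p from 0.0577 to 0.105, and each was brightest on Crh replicate 2. Igfbp2 replicate 1 was above Crh replicate 3 for Cryba1 (394 against 171) and Crygs (163 against 94.7). For Crygb it was below Crh replicate 3 (33.99 against 41.8). With Crh replicate 1 alone the differences of Cryba1, Crygs, Crygb and Crygc lay below 0. Vim, an intermediate filament protein of glia, measured 8.52, 274 and 109 on the Crh arrays against 8.197 to 37.9 (median 22.8) on the others (adjusted p = 0.151), with a difference of -1.34 by Crh replicate 1 alone. Opn1mw, a cone opsin, measured 0.0813, 153 and 229.6 on the Crh arrays against 0.0238 to 9.09 (median 0.288) on the others (log2 difference 3.48, SE 0.93, adjusted p = 0.0231), and with Crh replicate 1 alone its difference was -0.22. For Opn1mw 1 Crh array and 7 of the others were at the floor, so its difference has no bound.

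**Figure D4:**
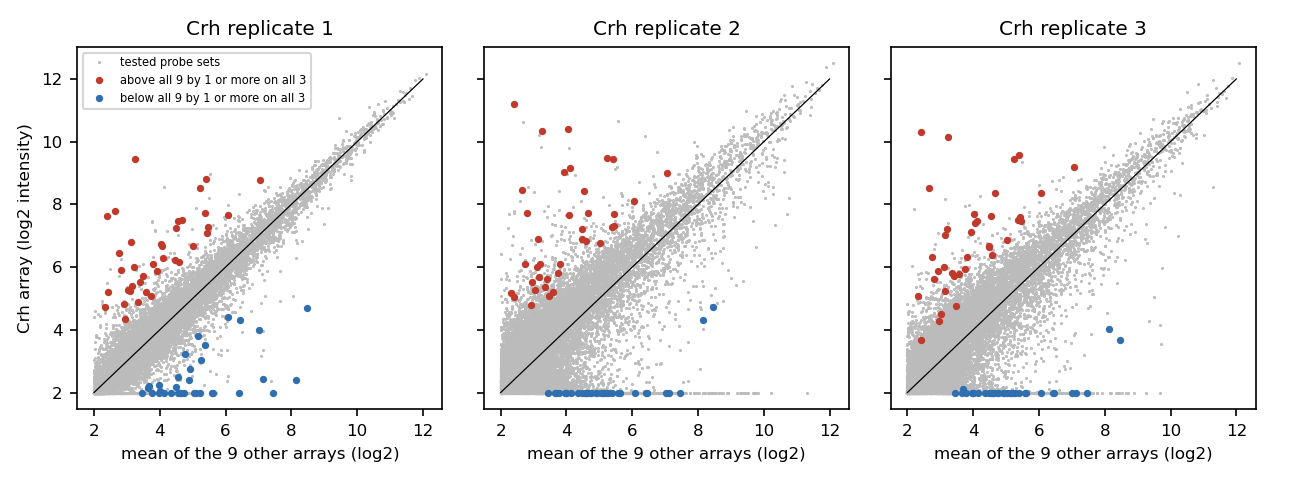
Log2 intensity on each Crh array against the mean of the 9 other arrays, with 1 point per tested probe set and the line of equality; red and blue points are the 37 and 34 probe sets above and below all 9 by 1 or more on all 3 Crh arrays. Crh replicate 1 stays near the line (r of 0.923 to 0.934 with the others), while Crh replicates 2 and 3 carry a row of bright genes at the floor, 283 and 141 of those above 32 on all 9 others.

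Markers of several other retinal cell types were also higher, with their highest sums on Crh replicate 2. The sums of horizontal cell and pigment epithelium markers did not exceed those of the other lines. Of 13 tested bipolar cell markers 9 were called higher and 0 lower (69.2% and 0%, beside 3.63% and 8.76% overall; list median 1.86, against 0.10 over all genes), and their summed intensity was 353, 2525 and 658 on Crh replicates 1, 2 and 3, against 122 to 278 on the others. Pcp2, a regulator of G-protein signalling in bipolar cells, measured 77.9, 572 and 175 on the Crh arrays against 10.04 to 33.8 (median 15.8) on the others (log2 difference 3.53, SE 0.49, adjusted p = 0.0016), a call that held with the Crh arrays' own spread (adjusted p = 0.04). Gng13, a G-protein subunit of ON bipolar cells, measured 58.1, 519.5 and 139.8 on the Crh arrays against 7.19 to 28.3 (median 17.3) on the others (log2 difference 3.41, SE 0.54, adjusted p = 0.00328). In the bipolar Pcp2 set these genes reached means of 1209 and 1309, against 199 and 162 in the Crh set.

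Of 13 Müller glia markers 6 were called higher and 0 lower (46.1% and 0%, beside 3.63% and 8.76% overall; median 1.03), with sums of 935, 4654 and 1872 on the Crh arrays and 633 to 935 on the others. Rlbp1, the retinaldehyde-binding protein of Müller glia, measured 108, 1348 and 205 on the Crh arrays against 7.57 to 40.3 (median 18.04) on the others (log2 difference 4.23, SE 0.65, adjusted p = 0.00296). Glul, glutamine synthetase, measured 321, 1168 and 428 on the Crh arrays against 13.9 to 279 (median 105) on the others (log2 difference 2.69, SE 0.50, adjusted p = 0.00644). Rod markers summed to 469, 4343 and 1654 on the Crh arrays, against 79.8 to 339.5. Only 1 of 14 was called higher and 1 lower (7.14% each, beside 3.63% and 8.76% of all tested). The gene called higher was Gnat1, rod transducin, at 197, 2362 and 1277 on the Crh arrays, against 7 of 9 others at the floor and a highest of 49.2 (log2 difference of at least 7.31, SE 0.79, adjusted p = 0.000434). Its adjusted p was 0.045 with the Crh arrays' own spread and 0.068 with Crh replicate 1 alone. Pde6a, Pde6b, Pde6g, Cnga1 and Rcvrn, other defining genes of rods, were at or below the floor on all 12 arrays. They are counted as tested because they were bright in other sets of the series.

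Cone markers summed to 65.5, 713 and 329 on the Crh arrays, against 24.8 to 77.6. Of 9 tested, 3 were called higher and 0 lower (33.3% and 0%, beside 3.63% and 8.76% of all tested). Arr3 and Pde6c were at or below the floor on all 12 arrays. Ganglion cell markers (3 of 14 higher, 21.4%, and 0 lower) summed to 221, 561 and 337, against 184 to 361. Microglial markers (3 of 13 higher, 23.1%, and 0 lower) summed to 129, 357 and 176, against 84.96 to 116. Endothelial markers (0 of 7 called by limma, 2 at an unadjusted p below 0.05) summed to 83.9, 323 and 139, against 71.95 to 161. On Crh replicate 1 the ganglion, Müller, cone and endothelial sums lay within the range of the other arrays, while the rod, bipolar and microglial sums lay above it. Its Müller sum of 934.8 was just under the highest of the others, 935.1, and its cone sum exceeded all of them but Igfbp2 replicate 1. On Crh replicate 3 the ganglion and endothelial sums lay within the range of the others too. Horizontal cell markers (1 of 6 higher and 1 lower, 16.7% each) summed to 283, 258 and 268, against 281 to 403. Pigment epithelium markers (0 of 9 higher and 1 lower, 0% and 11.1%) summed to 71.3, 67.6 and 62.3, against 69.1 to 116. Pericyte and smooth muscle markers (0 of 8 higher and 1 lower, 0% and 12.5%) summed to 112, 179 and 129, within the 80.3 to 470.4 of the others. The top of that range comes from the Rgs5 line, whose driver gene is in the list, at 344 to 470.4. The Arc 3rd and Igfbp2 arrays summed to 80.3 to 95.2, below all 3 Crh arrays. Acta2, the gene called lower, differed by 0.29 against Arc 3rd alone and by 0.18 against Igfbp2 alone. For the horizontal, pigment epithelium and pericyte lists each share above 0% is a single gene, beside 3.63% and 8.76% of all tested. The part of all these cell type markers in the other results was not tested. Of the 37 genes above all 9 others by 1 or more, 4 are in the marker lists of other cell types. They are Gnat1 of 14 tested rod markers, Rlbp1 of 13 Müller glia markers, and Pcp2 and Gng13 of 13 bipolar markers. Of all tested probe sets, 0.235% lay that far above. Genes outside these lists can also be bright in other sets, as Retn was in the Pcp2 set (990.2, against 568 in the Crh set). The call of Rlbp1 and Gng13 was lost with the Crh arrays' own spread, at adjusted p = 0.054 and 0.051.

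**Figure D5:**
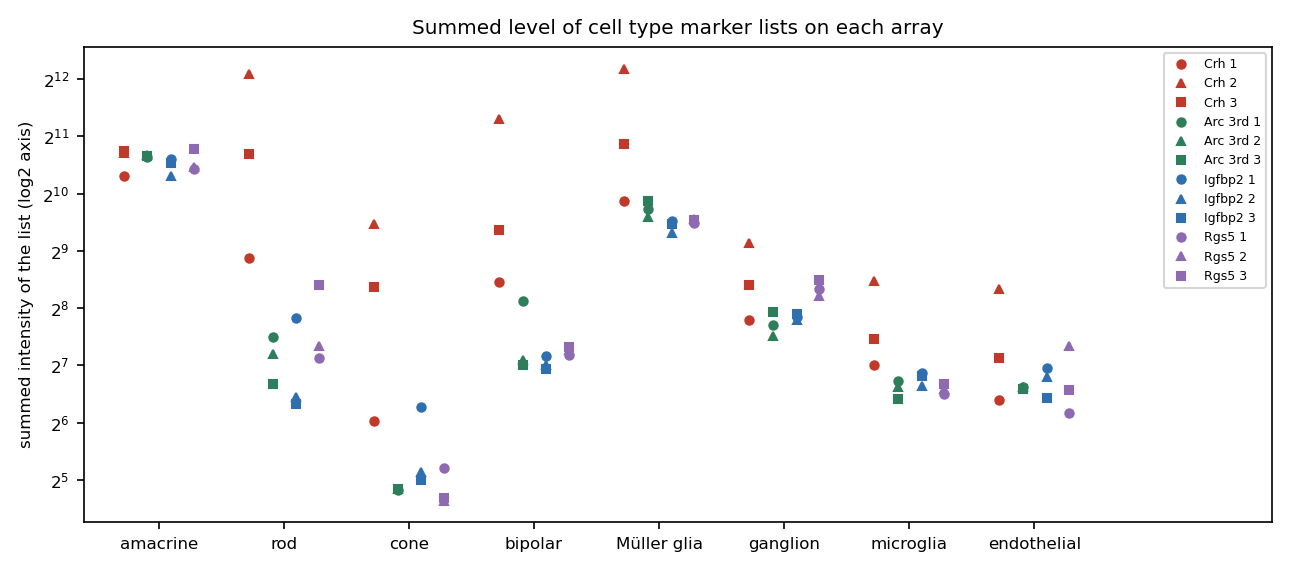
Summed intensity, on a log2 axis, of 8 lists of cell type markers on each of the 12 arrays, with colour for the line and circle, triangle and square for replicates 1, 2 and 3. The amacrine sums overlap, at 1266, 1670.0 and 1722 on the Crh arrays and 1265 to 1749 on the others, whereas the other 7 lists shown are highest on Crh replicate 2.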

How the data were processed

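RNA of sorted retinal cells was measured on whole-transcript mouse arrays. The authors deposited 1 normalized intensity per probe set and array; per the submitters' processing notes these come from RMA in the oligo package under R 2.11.1 with build mm9, and settings are not given in the sources used here. All 78 columns share the same sorted values (largest difference 0), from 0.0238 to 5770, which is a linear scale, and all differences were taken after a log2 transformation. The lowest values on 70 arrays stand in order of probe set identifier in runs of 10 or more. The end of the longest run, 3.99, was used as a floor to which lower values were raised. The number of arrays limits the precision.

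Probe sets with several symbols (735) or none listed (2166) are not named. Testing was limited to probe sets with a mean above 9.01 (the median intensity) in 1 or more of the 26 sets, and 3710 dimmer ones were left out. Of those kept, 353 passed through the Crh set alone, and 47 of these were called higher, so a member in that position had to be high. Of the 4 sets compared, Crh alone was above the threshold for 1697, of which 207 were called higher, and 19 of all those kept were at or below the floor on all 12 arrays. Set means were fitted over the 12 arrays in limma 3.58.1 (R 4.3.3) with a trend in the prior variance, and the Crh mean was set against the mean of the other 3. A call needs an adjusted p (Benjamini-Hochberg) below 0.05 together with a log2 difference of 1 or more. A gene of several probe sets is described by its brightest in the list counts.

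The members, gene lists and tests were chosen with earlier results of these data known, so no list gets a test of its own. The named genes are the line's markers and driver genes, the 15 largest differences per direction among called genes whose groups do not overlap, up to 4 called members per list with its defining members, and the 10 probe sets per direction by which Crh replicate 1 stands farthest from the other Crh arrays. Six6, Npy, Pdyn, Cort, Hpca, Cabp1, Kcnip2, Flrt3, Apoe, Tac1 and Mpped2, and the genes so marked in the text, were picked after their values were seen. Replicate numbers were checked as a pairing: residuals of equal numbers correlated at -0.135 to 0.0561 over 18 pairs of arrays. No shared effect of equal numbers was seen, which does not settle whether the arrays were prepared in pairs. Alternatives covered the floor, filter, probe set choice, normalization, arrays and lines left out, array weights and the replicate block. Figures were drawn with matplotlib 3.10.9, numpy 2.4.6 and pandas 2.3.3 in python 3.11.15.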

Additional observations from a re-analysis of the deposited data

How the results depend on the processing

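Of the main counts, 571 probe sets higher and 1378 lower, both stayed within 1.5 times without the floor, without the filter, with another filter, with 1 probe set per gene, with all probe sets, with cyclic loess, over all 78 arrays, with line means as the unit and without the variance trend. Leaving out single arrays gave 278 to 1538 higher and 327 to 2378 lower; the extremes are without Crh replicate 2 and without Crh replicate 1. Leaving out the Arc 3rd, Igfbp2 or Rgs5 line left 589, 609 and 547 lower. Against Arc 3rd alone 693 were lower, against Igfbp2 alone 453 (and 340 higher) and against Rgs5 alone 861. Array weights per set gave 74 and 100, and weights per array gave 926 higher. Crh replicate 1 as the lone Crh array, chosen after seeing the data with its spread assumed to be that of the other sets, gave 98 and 36. Of the probe sets apart by 1 or more, 37 above and 34 below, there were 44 to 179 and 37 to 1203 without single Crh arrays. Without the Rgs5 line there were 68 and 60, and with the lone array 81 and 61. The lowest agreement of 0.730 was 0.484 as Spearman's rho. With the replicate block, whose numbers showed no shared effect between lines, 554 were higher and 1342 lower.

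Directions turned for Acta2 (0.23 without the Rgs5 line, 0.29 against Arc 3rd alone, 0.18 against Igfbp2 alone), and against Rgs5 alone for Rgs5 (-2.15), Vip (0.16), Npy (1.41) and Chrm2 (0.044). With Crh replicate 1 alone they turned for Opn1mw (-0.22), Scgn (-0.011), Gjd3 (0.044), Gja3 (0.16), Mt3 (0.086), Cort (0.17), Rpl7a (0.075), Rpl27a (0.34), Dalrd3 (0.46), Crygd (-0.29) and Vtn (-2.09, which passes the test with that array alone). Of named genes that did not pass the test, Arc, Rgs5, Crygc, Cryba1, Crygs, Crygb, Prcd, Mfge8 and Vim turned as well, to between -0.21 and -1.34. The cause was not tested. Intensities at or below 3.99 set a bound only; Crh replicates 2 and 3 were both there for 728 of the 1378 called lower.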

Other observations

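Axon guidance genes and synaptic genes gave single changes in the Crh line. Of 60 tested guidance genes 4 were called higher and 1 lower (6.67% and 1.67%, beside 3.63% and 8.76% overall; list median 0.27). Unc5d, a netrin receptor, measured 129.7, 112 and 203 on the Crh arrays against 9.73 to 69.5 (median 21.6) on the others (log2 difference 2.60, SE 0.41, adjusted p = 0.00307), and Ntng1, netrin-G1, measured 15.3, 41.1 and 23.3 on the Crh arrays against 5.73 to 8.82 (median 6.47) on the others (log2 difference 1.80, SE 0.27, adjusted p = 0.0027). All 3 Crh arrays lay above all 9 others for both. Sema3f, a secreted semaphorin, measured 12.5, 1.47 and 0.889 on the Crh arrays against 14.1 to 17.5 (median 14.9) on the others (log2 difference -1.40, SE 0.30, adjusted p = 0.0119), and Crh replicate 1 lay nearest to the others. Among 29 immunoglobulin recognition molecules 2 were called higher and 0 lower (6.9% and 0%, beside 3.63% and 8.76% overall): Dscam, which spaces amacrine cells and their processes, measured 14.2, 28.2 and 28.4 on the Crh arrays against 5.37 to 11.5 (median 7.93) on the others (log2 difference 1.46, SE 0.24, adjusted p = 0.00362), and Nrcam measured 24.7, 31.8 and 49.03 on the Crh arrays against 10.3 to 30.6 (median 12.2) on the others (log2 difference 1.25, SE 0.26, adjusted p = 0.00959). Of 13 gap junction genes 0 were called higher and 3 lower (Gjd3, Gjc1 and Gja3; 0% and 23.1%, beside 3.63% and 8.76% overall), and for Gjd3 Crh replicate 1 lay within the range of the others. With the Crh arrays' own spread the adjusted p was 0.09 for Unc5d, 0.049 for Ntng1 and 0.062 for Dscam.

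Metabolic and stress genes were measured as well. Of 76 oxidative phosphorylation genes 0 were called higher and 7 lower (0% and 9.21%, beside 3.63% and 8.76% overall), so the share lower was near that over all genes. Glycolysis genes had 1 of 14 higher (Pfkl) and 2 lower (Ldha and Hk1), which is 7.14% and 14.3%, beside 3.63% and 8.76% of all tested. Ldha, which makes lactate, measured 622, 419 and 156 on the Crh arrays against 515 to 1415 (median 1048) on the others (log2 difference -1.40, SE 0.31, adjusted p = 0.0122), and Crh replicate 1 lay within the range of the others. Immediate early and stress genes had 1 of 17 higher (Ier5) and 3 lower (Hspa1a, Btg2 and Ier2), which is 5.88% and 17.65%. Hspa1a, a heat shock protein, measured 40.4, 3.29 and 2.48 on the Crh arrays against 14.5 to 98.96 (median 54.5) on the others (log2 difference -2.48, SE 0.73, adjusted p = 0.031), with low values on Crh replicates 2 and 3 only.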
